A study of Mus musculus with 16 samples.

Results

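The liver breaks down most amino acids that reach it with a meal or are released from muscle, and hands the nitrogen to the urea cycle and the carbon to glucose synthesis. Tat, Tdo2 and Sds are textbook examples of liver genes that glucocorticoids, fasting and the feeding rhythm switch on. Tyrosine is broken down in order by Tat (tyrosine aminotransferase), Hpd (4-hydroxyphenylpyruvate dioxygenase) and Hgd (homogentisate dioxygenase). Tdo2 (tryptophan 2,3-dioxygenase), Hal (histidine ammonia-lyase) and Sds (serine dehydratase) each take the first step for the amino acid in their name. Got1 and Gpt are the aspartate and alanine aminotransferases, and Bhmt remethylates homocysteine to methionine with betaine. The promoters of these 9 genes were followed through the day by the stretches of chromatin that lay close to them.

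Promoter Capture Hi-C (P-CHi-C) was made from livers of wild type C57BL/6 males fed ad libitum under 12 h of light followed by 12 h of dark. Their labelled age is 8 weeks, which in the methods is the age before they were kept in this light cycle. Tissue was collected at zeitgeber time ZT0 (lights on), ZT6, ZT12 (lights off) and ZT18, as 3 pools of 2 livers per timepoint. With pool A sequenced on 2 lanes this gave 16 samples, but the pools of a timepoint were merged before interactions were called, so that each timepoint is 1 list with no replicate error. No difference between timepoints given here has a test or a replicate check. Whole livers were used, so a contact in fewer cells and a weaker contact in each cell cannot be told apart, and the lists hold no RNA level by which the tissue could be checked.

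In P-CHi-C the crosslinked chromatin is cut with HindIII, ligated, and the ligation products of promoter fragments (baits) are captured with RNA probes. The contacts of a gene were all fragment pairs with an end on the bait that holds its annotated start. Each pair carries a CHiCAGO score, which grows as the reads of the pair exceed those expected from distance and noise, and the lists begin at a score of 5. A pair that is not listed at a timepoint was therefore under 5 there, and its reads are unknown. All 9 genes start on a bait, and together they had 142 of the 247177 listed pairs, on 9 of 18165 baits. All 142 joined fragments of the same chromosome.

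The sequences below, read from the mm9 genome, are those to which the results return. They are written 5′ to 3′ in lower case, with capitals for an intact HindIII site (AAGCTT) or for the palindrome ACANNNTGT, the core of the element bound by the glucocorticoid receptor. The first pair is the 250 bases before the starts of Hal and of Amdhd1, the ends of the highest-scoring contact. Hal lies on the plus strand at chr10:92951263-92951512 and Amdhd1 on the minus strand at chr10:93002779-93003028.

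Hal: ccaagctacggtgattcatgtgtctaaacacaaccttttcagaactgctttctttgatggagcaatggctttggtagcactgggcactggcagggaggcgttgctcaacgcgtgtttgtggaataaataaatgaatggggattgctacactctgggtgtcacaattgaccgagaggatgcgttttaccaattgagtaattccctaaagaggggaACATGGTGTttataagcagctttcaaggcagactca

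Amdhd1: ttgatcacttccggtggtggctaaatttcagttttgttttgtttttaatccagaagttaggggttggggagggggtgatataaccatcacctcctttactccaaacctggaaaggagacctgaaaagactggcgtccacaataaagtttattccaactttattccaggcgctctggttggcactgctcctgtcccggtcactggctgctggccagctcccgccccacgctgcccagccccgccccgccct

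The next pair belongs to Hpd, whose contacts were listed at 2 timepoints. The first is the 250 bases before its start (minus strand, chr5:123632735-123632984), where the HindIII site shown ends the bait, and the second is the whole contacted fragment with the highest score (plus strand, chr5:123676506-123676783).

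Hpd: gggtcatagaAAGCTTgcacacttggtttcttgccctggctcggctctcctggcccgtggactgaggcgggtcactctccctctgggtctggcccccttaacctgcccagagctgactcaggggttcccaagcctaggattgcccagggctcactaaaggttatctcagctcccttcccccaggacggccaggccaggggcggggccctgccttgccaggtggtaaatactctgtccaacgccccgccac

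Hpd contact: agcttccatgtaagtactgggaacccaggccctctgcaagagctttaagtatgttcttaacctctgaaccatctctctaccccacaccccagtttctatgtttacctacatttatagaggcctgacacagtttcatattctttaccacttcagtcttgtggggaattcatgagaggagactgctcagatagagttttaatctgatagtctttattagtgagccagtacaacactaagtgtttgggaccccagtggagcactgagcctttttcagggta

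The last pair stands for the far contacts of Tdo2 and Sds. It gives the 250 bases before the RefSeq start of Fgg (plus strand, chr3:82811396-82811645), whose HindIII site is the lower end of the fragment that Tdo2 contacted most strongly, and the intron fragment of 1110008J03Rik that Sds contacted (plus strand, chr5:121058423-121058641).

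Fgg: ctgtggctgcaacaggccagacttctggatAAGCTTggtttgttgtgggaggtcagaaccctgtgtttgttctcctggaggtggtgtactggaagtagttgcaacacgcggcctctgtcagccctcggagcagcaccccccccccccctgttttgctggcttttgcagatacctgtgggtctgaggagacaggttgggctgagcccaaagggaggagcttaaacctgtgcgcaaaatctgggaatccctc

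Sds contact: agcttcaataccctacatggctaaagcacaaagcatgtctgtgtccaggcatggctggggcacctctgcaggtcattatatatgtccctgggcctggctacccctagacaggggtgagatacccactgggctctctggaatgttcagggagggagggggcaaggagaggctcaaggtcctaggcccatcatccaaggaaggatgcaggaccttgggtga

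Over the day the 9 promoters had 63 listed contacts at ZT0 and 97, 102 and 84 at ZT6, ZT12 and ZT18. Per 10000 pairs of each list this was 4.31 at ZT0 and 6.27, 6.73 and 5.55 at ZT6, ZT12 and ZT18, so that the share of the list was also lowest at ZT0, whose list is the shortest (146262 pairs against 151347 to 154775). Tdo2 alone had 7 contacts at ZT0 and 24 at ZT6. Without it there were 56 at ZT0 and 73, 84 and 76 at ZT6, ZT12 and ZT18. More contacts were listed at ZT6 than at ZT0 for 5 of the 9, against 43.9% of all baits. At ZT12 it was 7 of the 9 against 42.6%, and at ZT18 8 of the 9 against 42.8%. For 5 of these 8 (Tat, Tdo2, Sds, Got1 and Hgd) the ZT18 list held just 1 contact more than the ZT0 list, and with scores of at least 7 the 8 became 4. All baits had a median of 9 contacts against 14 for the 9 promoters, and baits with similar numbers were not counted separately. The sample labels fix which list belongs to which timepoint, but the study's own summary sets the list totals of ZT6, ZT12 and ZT18 against other hours. In that order the list called ZT12 here would be ZT6, ZT18 would be ZT12 and ZT6 would be ZT18, while ZT0 would stay, and 5 of the 9 would have more contacts at ZT18 than at ZT0.

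**Figure D1:**
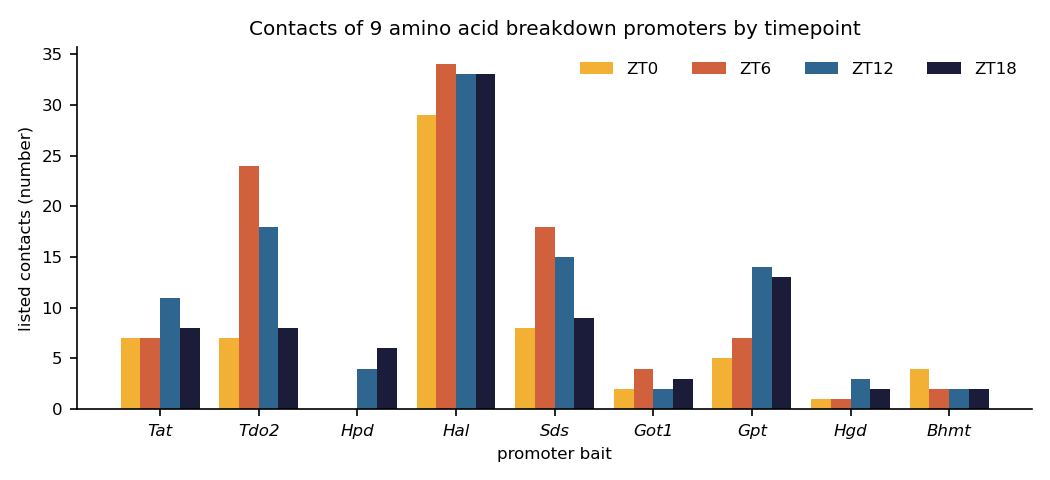
Bars give the number of contacts (y axis) listed for each promoter bait (x axis) at ZT0, ZT6, ZT12 and ZT18, with 1 merged list per timepoint and no error. Tdo2 and Sds reach their most at ZT6 with 24 and 18, Gpt at ZT12 with 14, Hpd has none at ZT0 and ZT6, and Hal stays between 29 and 34.

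The 9 promoters differed widely in their number of contacts, from 3 for Hgd to 41 for Hal, with a median of 14 against 9 over all baits (quartiles 4 and 21). The difference between lists was also uneven. For Tdo2, Hpd, Sds and Gpt the fullest list held at least 2 times as many contacts as the emptiest and at least 5 more, a pattern chosen after the values were seen. That is 4 of the 9, where 11.8% of all baits show it, or 3 of the 5 with at least 10 contacts, where 20.1% of such baits do.

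Of the 142 contacts, 48 (33.8%, 95% Wilson interval 26.5 to 41.9) were listed at all 4 timepoints, against 32.5% of all pairs. A further 51 (35.9%, 28.5 to 44.1) were listed at 1 timepoint only, against 35.2% of all pairs. These intervals cover counting error only, and contacts of a bait are not independent. Both shares were near those of the whole lists, but they joined unlike promoters: Hal alone gave 23 of the 48 constant contacts, and Tdo2 and Gpt gave 13 and 12 of the 51 that were listed once. Without Hal the share listed at all 4 timepoints was 24.8%. When another end of the same bait within 10 kb was accepted as the same contact, 64.1% were found at all 4 timepoints and 14.1% at 1, where the contacts of all baits gave 63.2% and 14.0%.

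**Figure D2:**
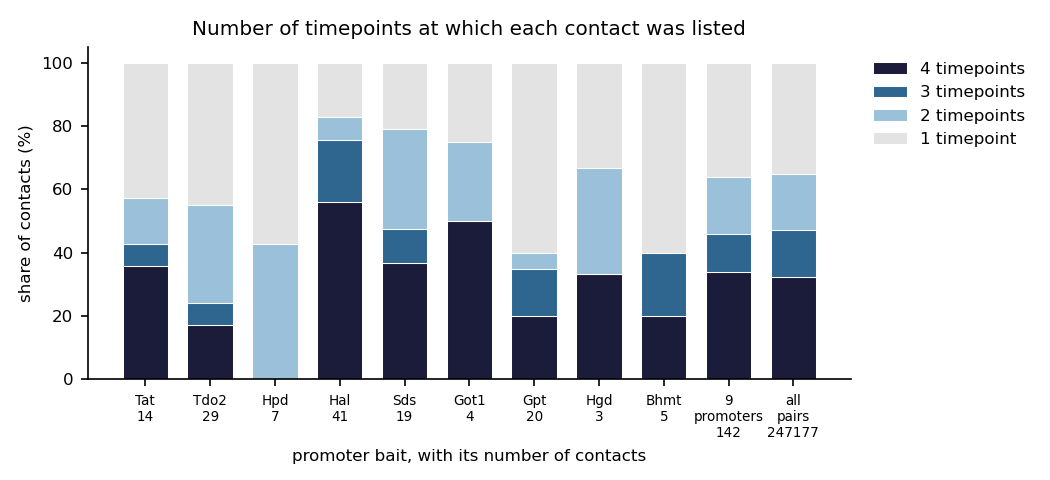
Stacked bars give the share of contacts in % (y axis) listed at 4, 3, 2 or 1 timepoints for each promoter, for the 9 together and for all pairs (x axis, with the number of contacts). Hal has the largest dark part and Hpd has none, while the 9 together (33.8% at 4 timepoints) resemble all pairs (32.5%).

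The 51 contacts listed once were near the minimum, with a median score of 5.52 and a range of 5.03 to 9.53. Of these, 6 were listed at ZT0, and 16, 15 and 14 at ZT6, ZT12 and ZT18. The same split over all pairs listed once was not counted, so these numbers cannot be called particular to the 9 promoters. The best scores of the 48 constant contacts ran from 6.54 to 26.55 with a median of 10.22. A score of 10 was reached at some timepoint by 29 contacts, and 25 of these were listed at all 4 timepoints, where 89.7% of all such pairs were. None of the 29 had its highest score at ZT0, where 22.0% of all such pairs had theirs. At ZT6, ZT12 and ZT18 4, 9 and 16 of them peaked, and the shares of all such pairs there were not counted. The 29 are not independent, since 14 belonged to Hal, 12 of these in 1 block downstream of it, and the other 15 to 5 promoters.

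A protein-coding gene starts on 32 of the 142 contacted fragments (22.5%), another 49 overlap an exon (34.5%), 23 lie in introns (16.2%) and 38 lie outside coding genes (26.8%). Over the contacts of all baits, each counted from its bait, these shares were 24.2%, 25.0%, 21.0% and 29.9%. The other end was itself a bait in 32 of the 142 contacts (22.5%, Wilson interval 16.4 to 30.1). Of all pairs 15.4% had baits at both ends, but that share does not count such a pair from each of its baits. It is therefore too low to compare with the 22.5%, and no excess of contacts between baits can be read from it. Baits stood at both ends of 38058 pairs, and each of these enters from both ends into the 285235 contacts counted from each bait. Counted in this way, the share over all baits was above 22.5% and inside the Wilson interval, so no excess was seen. The median distance, taken between fragment midpoints, was 119 kb (95% order-statistic interval 86.5 to 165), against 162 kb over all pairs. Without Hal it was 136 kb and without Tdo2 89.2 kb. The interval takes contacts as independent, which contacts of a bait are not.

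At the list minimum of 5 the most constant of the 9 was Hal, on chromosome 10 (ENSMUSG00000020017, start at 92951513, bait 92950894 to 92957894). It had 29 contacts at ZT0 and 34, 33 and 33 at ZT6, ZT12 and ZT18. With higher minimum scores its counts were less even. In time order they were 14, 24, 21 and 24 at a score of at least 7, and 6, 9, 9 and 12 at 10. Of its 41 contacts 25 formed a block 8.17 to 102 kb downstream, through the end of Hal and across Amdhd1, Ccdc38 and Snrpf, and 20 of these 25 were listed at all 4 timepoints. Within the block 12 adjoining fragments were contacted without a break.

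The highest score of all 142 contacts was that of Hal with the bait on which Amdhd1 and Ccdc38 start, 47.4 kb downstream. Amdhd1 is imidazolonepropionase, a later enzyme of the same histidine pathway. This contact scored 17.21 (ZT0), 19.61 (ZT6), 24.14 (ZT12) and 26.55 (ZT18). It was lowest at lights on and highest at ZT18, whose list would be ZT12 in the other order. No other pair joined one of the 9 promoters to the start of one of the 58 further genes of amino acid breakdown.

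The neighbouring fragments in Ccdc38, a gene for a coiled-coil protein, came next. The fragment 61.8 kb away scored 15.99 (ZT0), 19.57 (ZT6), 20.8 (ZT12) and 17.7 (ZT18). The one 52.5 kb away scored 14.27, 15.19, 15.68 and 17.84 in the same order. At Snrpf, which encodes a core protein of the spliceosome, the bait 98.0 kb away scored 6.73, 9.61, 5.95 and 8.22.

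Over the 23 constant contacts of Hal the median score was 7.52 at ZT0 and 9.61, 8.33 and 9.98 at ZT6, ZT12 and ZT18. None of the 23 was highest at ZT0, 11 were at ZT6 and 10 at ZT18. Upstream, 15 contacts lay 338 to 451 kb away, in and beside 4930485B16Rik, and 3 of them were constant. The bait with the start of that gene was not listed at ZT0 and scored 9.04 at ZT6, 7.34 at ZT12 and 14.73 at ZT18.

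**Figure D3:**
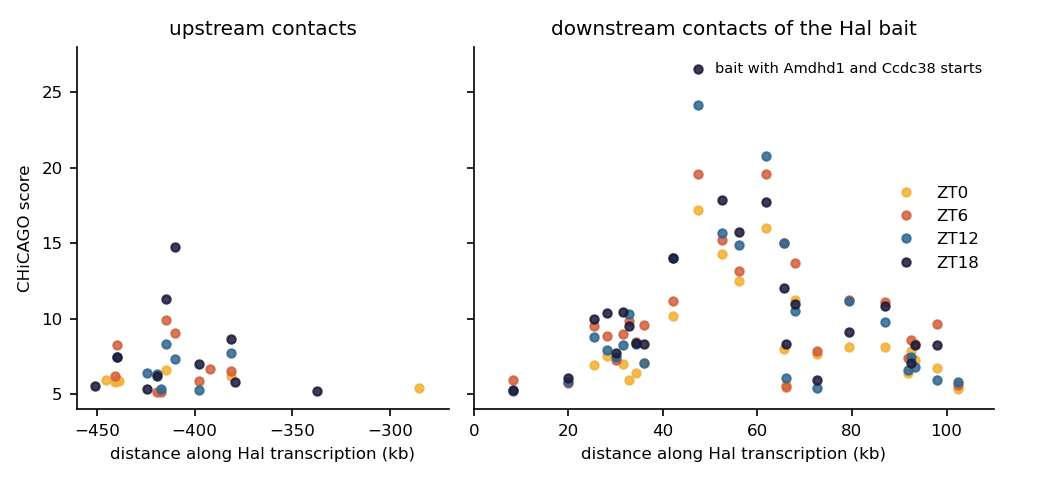
Points give the CHiCAGO score (y axis) of each contact of the Hal bait against its distance in kb along Hal transcription (x axis, upstream negative) at each timepoint. Scores crest at the bait with the Amdhd1 and Ccdc38 starts, 17.21 at ZT0 and 26.55 at ZT18, while upstream contacts stay at or under 14.73.

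The contacts of Tdo2 reached farthest, and their number varied most over the day. Tdo2 lies on chromosome 3 (ENSMUSG00000028011, start at 81780124, minus strand) on the bait 81777237 to 81787616, which also holds the start of Accn5, so that the contacts of these promoters cannot be told apart. The bait had 7 contacts at ZT0 and 24, 18 and 8 at ZT6, ZT12 and ZT18, and 5 of them stood in all 4 lists. It was thus fullest at ZT6 and ZT12, and 10 of its contacts were listed at ZT6 alone. In the other order of lists it would be fullest at ZT18 (24) and ZT6 (18), and those 10 would be at ZT18.

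Of its 29 contacts 15 lay 1023 to 1078 kb upstream, at the fibrinogen genes Fgg, Fga and Fgb, which encode the chains of the main clotting protein made by hepatocytes. This group held 3 listed contacts at ZT0 and 12, 12 and 4 at ZT6, ZT12 and ZT18, and 3 of them were listed throughout. The bait at the start of Fgg, 1029 kb away, scored 8.1 (ZT0), 14.58 (ZT6), 14.78 (ZT12) and 11.81 (ZT18). Fgg was thus lowest at ZT0 and highest at ZT6 and ZT12.

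The bait at the start of Fgb, 1073 kb away, scored 9.09 (ZT0), 8 (ZT6), 8.84 (ZT12) and 13.31 (ZT18). Fgb was thus highest at ZT18, where Fgg was below its ZT6 and ZT12 scores. Fga, between them and named after its values were seen, was listed at ZT12 alone, with 9.53. Plrg1, which encodes a splicing factor, was listed at ZT12 with 8.97 and at ZT18 with 5.43.

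Nearer to Tdo2, a fragment outside coding genes 377 kb upstream scored 7.93 (ZT0), 9.43 (ZT6), 5.71 (ZT12) and 11.38 (ZT18). The adjoining bait of Mtap9, a microtubule protein, scored 5.45 at ZT0, 7 at ZT12 and 6.29 at ZT18 and was not listed at ZT6. Ctso (cathepsin O), 47.7 kb downstream, scored 5.49, 6.67, 6.82 and 5.83 in time order. The longest contact, 2136 kb downstream with Tmem144, was weak, at 5.13 at ZT0 and 5.97 at ZT6.

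The 18 Tdo2 contacts listed at ZT6 but not at ZT0 scored 5.3 to 9.22 at ZT6, with a median of 7.04 and none at 10 or over. The larger number at ZT6 thus came from contacts of moderate score. With other ends within 10 kb merged into 1 contact, the bait had 5 contacts at ZT0 and 9, 7 and 5 at ZT6, ZT12 and ZT18. When a score of 10 was required it had none at ZT0 and 1, 3 and 4 at ZT6, ZT12 and ZT18, which turned the order of ZT6 and ZT18.

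**Figure D4:**
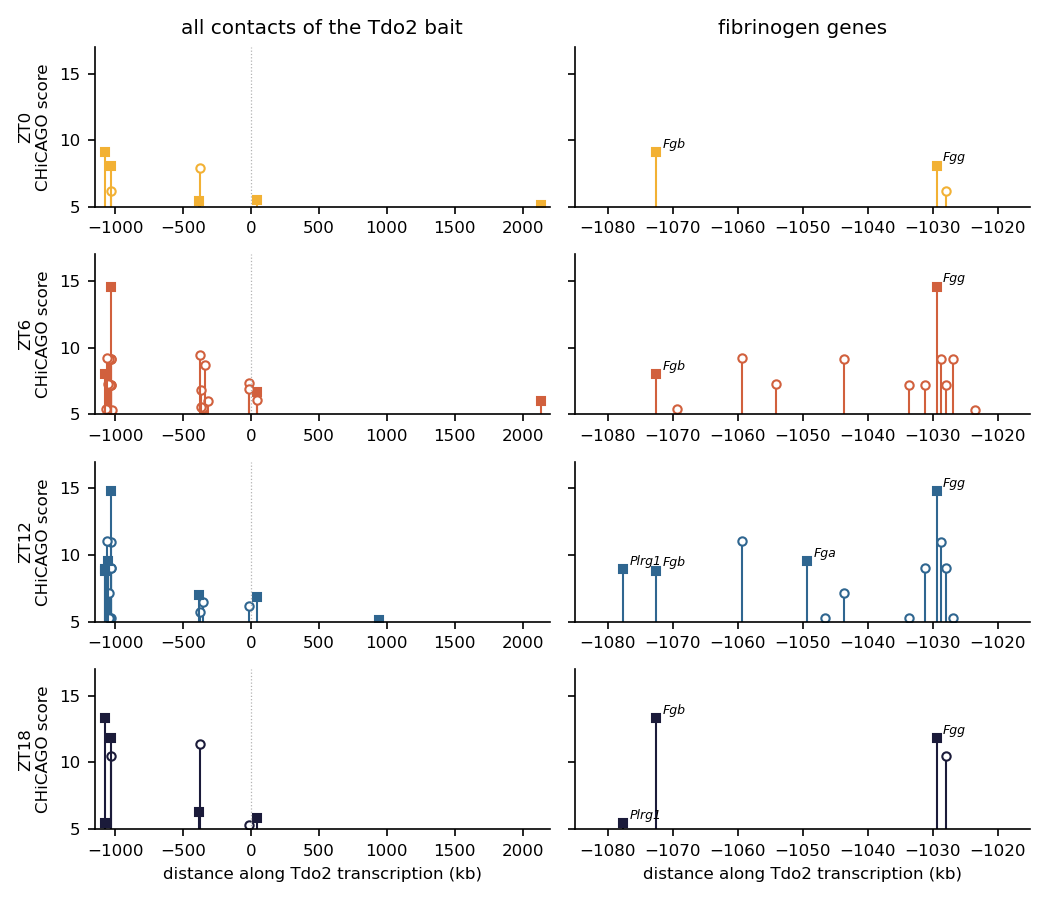
Each row is a timepoint and each stem the CHiCAGO score (y axis, from the list minimum of 5) of a Tdo2 contact at its distance in kb along Tdo2 transcription (x axis, upstream negative), with filled squares where the other end is a bait. The right panels enlarge the fibrinogen genes, where 3 contacts were listed at ZT0 and 12, 12 and 4 at ZT6, ZT12 and ZT18.

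Sds, on chromosome 5 (ENSMUSG00000029597, start at 120926540), shares its bait of 27291 bp with Sdsl, the serine dehydratase-like gene, and with it all its contacts. It had 8 contacts at ZT0 and 18, 15 and 9 at ZT6, ZT12 and ZT18, of which 7 were constant. Most lay in a group of 12 contacts 109 to 165 kb downstream, with 4 listed at ZT0 and 12, 9 and 5 at ZT6, ZT12 and ZT18. In the other order of lists the 18 contacts of Sds would be at ZT18 and the 15 at ZT6.

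The strongest was the bait with the starts of Iqcd and of Tpcn1, a channel of endosomes and lysosomes, 112 kb downstream. It scored 17.33 (ZT0), 16.65 (ZT6), 16.27 (ZT12) and 20.08 (ZT18), and was thus highest at ZT18. The bait of 1110008J03Rik and Ddx54, an RNA helicase, 136 kb away, scored 10.17, 8.53, 13.45 and 9.84 in time order. Next to it, the intron fragment of 219 bp printed above was not listed at ZT0 and scored 6.48 at ZT6, 8.21 at ZT12 and 7.5 at ZT18.

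A fragment 121 kb away, in introns of 1110008J03Rik and Iqcd, scored 6.58 (ZT0), 7.56 (ZT6), 10.26 (ZT12) and 6.32 (ZT18). Closer to Sds, the bait of Plbd2, which encodes a lysosomal protein, 25.7 kb away, scored 5.69 (ZT0), 5.54 (ZT6), 8.71 (ZT12) and 6.46 (ZT18). Slc24a6, a mitochondrial sodium and calcium exchanger, was listed at ZT0 with 7.3 and at ZT6 with 5.32. Of the 7 constant contacts of Sds 6 had their highest score at ZT12, where their median was 9.06 against 6.58 at ZT0, although more contacts were listed at ZT6. Merged within 10 kb, the contacts of Sds numbered 2 at ZT0 and 4, 3 and 2 at ZT6, ZT12 and ZT18.

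Gpt lies in a gene-dense stretch of chromosome 15 (ENSMUSG00000022546, start at 76527163), with 36 other baits within 500 kb, where the median bait has 13. It shares its bait with the start of Mfsd3. It had 5 contacts at ZT0 and 7, 14 and 13 at ZT6, ZT12 and ZT18, so that its fuller lists were those that would be ZT6 and ZT12 in the other order. Of its 20 contacts 4 were constant and 9 had a bait at the other end.

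The strongest contact of Gpt was a fragment of 349 bp with an exon of Recql4, a DNA helicase gene, 10.04 kb downstream. It scored 5.81 (ZT0), 6.81 (ZT6), 9.28 (ZT12) and 12.04 (ZT18). A fragment in an intron of Cyhr1, 49.0 kb upstream, was not listed at ZT0 and scored 5.59 at ZT6, 7.84 at ZT12 and 10.53 at ZT18. Both were lowest or not listed at ZT0 and highest at ZT18.

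Beside it, the bait with the starts of Cyhr1, Foxh1 and Kifc2 scored 7.86 (ZT0), 7.11 (ZT6), 9.28 (ZT12) and 8.47 (ZT18). The bait of Fbxl6 and Gpr172b scored 5.75, 7.35, 7.87 and 8.59 in time order. Dgat1, which makes triglycerides, 186 kb upstream, scored 5.42, 5.44, 6.29 and 7.06. Tonsl, a gene of DNA repair, was listed at ZT12 with 6.34 and at ZT18 with 6.09. All 4 constant contacts of Gpt were higher at ZT12 and ZT18 than at ZT0, and their median was 5.78 at ZT0 and 6.96, 8.58 and 8.53 at ZT6, ZT12 and ZT18. The 12 contacts listed once had a median of 5.5, with none at ZT0.

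Hpd, on chromosome 5 (ENSMUSG00000029445, start at 123632734, minus strand), had no listed contact at ZT0 or ZT6, 4 at ZT12 and 6 at ZT18. It sits on the smallest bait of the 9, of 816 bp against a median of 5861 bp over all baits, and its start lies 235 bases from the HindIII site shown in its promoter. All 7 contacts lay 10.7 to 52.5 kb upstream, and none had a bait at the other end. They were weak throughout, with scores from 5.21 to 6.33. In the other order of lists 4 would be listed at ZT6, 6 at ZT12 and none at ZT0 or ZT18.

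The fragment of 278 bp printed above, 44.1 kb from Hpd, scored 6.33 at ZT12 and 5.99 at ZT18. The next fragment, which holds the start of Psmd9, a chaperone of proteasome assembly, scored 5.6 and 5.72. The nearest, 10.7 kb away, scored 5.21 and 6.25. The other 4 were listed once, at ZT12 with 5.37 (39.8 kb) and at ZT18 with 5.61 (15.8 kb), 5.47 (43.7 kb) and 5.9 (52.5 kb). At a score of at least 7 no contact of Hpd was left at any timepoint.

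**Figure D5:**
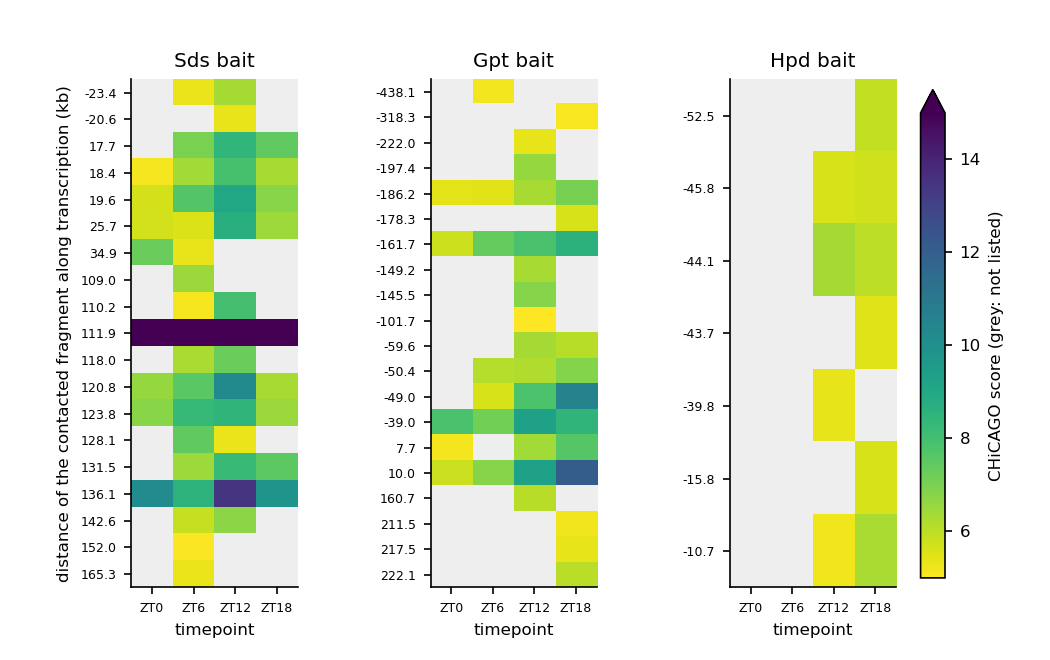
Each row is a contacted fragment of the Sds, Gpt or Hpd bait, ordered by its distance in kb along transcription (y axis, upstream negative), each column a timepoint (x axis), and the colour its CHiCAGO score, with grey where the pair was not listed. Sds is fullest at ZT6 (18 contacts), Gpt at ZT12 and ZT18 (14 and 13), and the columns of Hpd are empty at ZT0 and ZT6.

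Tat, on chromosome 8 (ENSMUSG00000001670, start at 112514337, bait 112510215 to 112515850), had 7 contacts at ZT0 and 7, 11 and 8 at ZT6, ZT12 and ZT18, of which 5 were constant. Its 14 contacts formed 3 groups, near the gene, at Zfp612 and at Hp. Hp encodes haptoglobin, the plasma protein that binds free haemoglobin. The Hp bait, 409 kb upstream, scored 6.86 (ZT0), 5.93 (ZT6), 11.33 (ZT12) and 7.1 (ZT18). It was thus highest at ZT12, whose list would be ZT6 in the other order.

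The fragment beside it, 406 kb from Tat, scored 8.04 at ZT6 and 9.54 at ZT12 and was not listed at ZT0 and ZT18. Just upstream of Tat, a fragment outside coding genes 10.5 kb away scored 7.84, 7.47, 10.18 and 6.66 in time order. The bait of Zfp612, a zinc finger gene 89.2 kb downstream, scored 7.86, 8.09, 9.23 and 6.5. These 3 constant contacts, at Hp, beside Tat and at Zfp612, all had their highest score at ZT12. The other 2 constant contacts did not: a fragment outside coding genes 13.9 kb upstream scored 7.32 (ZT0), 6.6 (ZT6), 7.28 (ZT12) and 5.5 (ZT18), and one with an exon of Tat 10.02 kb downstream scored 5.16, 6.54, 5.84 and 5.83.

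Got1, on chromosome 19 (ENSMUSG00000025190, start at 43599095, minus strand), had only 4 contacts, and 2 of them stood in every list. The bait of Entpd7, a nucleotide phosphatase gene 166 kb upstream, scored 14.56 (ZT0), 11.23 (ZT6), 12.44 (ZT12) and 18.35 (ZT18). An exon fragment of Cnnm1, 25.5 kb downstream, scored 7.31, 8.46, 7.1 and 10.75. Both were highest at ZT18, whose list would be ZT12 in the other order. Slc25a28, a mitochondrial iron importer, was listed at ZT6 with 5.71 and at ZT18 with 5.99, and an exon of Hps1, 757 kb away, at ZT6 with 6.75.

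Hgd, on chromosome 16 (ENSMUSG00000022821, start at 37580239), had 3 contacts, all upstream and none above 6.92. A fragment in an intron of Rabl3, 12.8 kb away, scored 6.83 (ZT0), 6.52 (ZT6), 6.92 (ZT12) and 5.76 (ZT18). The bait of Gtf2e1, a subunit of the general transcription factor TFIIE, scored 6.77 at ZT12 and 5.97 at ZT18, and that of Rabl3 5.34 at ZT12.

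Bhmt, on chromosome 13 (ENSMUSG00000074768, start at 94407916, minus strand), was the one promoter with its most contacts at ZT0: 4 there and 2 at each other timepoint. All 5 adjoin each other, 63.7 to 83.0 kb upstream, within Dmgdh. Dmgdh is dimethylglycine dehydrogenase, which oxidises the dimethylglycine that Bhmt makes from betaine. The farthest, itself a bait, scored 6.34 (ZT0), 8.7 (ZT6), 9.57 (ZT12) and 8.25 (ZT18), and was listed at every timepoint.

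Next to it, the fragment 78.6 kb away scored 7.27 at ZT0, 6.86 at ZT6 and 6.02 at ZT12 and was not listed at ZT18. The other 3 were listed once, at ZT0 with 5.2 and 5.06 and at ZT18 with 5.44. The larger number at ZT0 thus rested on 2 contacts at the minimum, while the constant contact was lowest at ZT0.

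For 6 of the 9 baits another bait shared at least 3 of the contacted fragments. The closest likeness, as shared fragments over all fragments of either bait, was 3 of 5 (60.0%) for Bhmt with the bait of Gm15622 and 12 of 24 (50%) for Sds with that of Plbd2. Gpt shared 10 of 27 (37.0%) with the bait of Lrrc14 and Recql4, Tdo2 16 of 44 (36.4%) with Fgb, Tat 7 of 20 (35.0%) with Hp and Hal 15 of 46 (32.6%) with Lta4h. Tdo2, Tat and Sds were thus most like a bait that they themselves contacted. The Fgb bait had 24 contacts at ZT0 and 21, 21 and 19 at ZT6, ZT12 and ZT18, and so had its most where Tdo2 had its fewest. The Hp bait had 6 at ZT0 and 8, 11 and 9 later, and the Plbd2 bait 10 at ZT0 and 14, 17 and 13 later, so that both were lowest at ZT0. The baits most like Hal, Gpt and Bhmt differed by at most 2 contacts between lists.

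A wider list of 58 genes of amino acid breakdown, of which 55 start on a bait, was counted in the same way. On the 53 baits not shared with the 9, the contacts numbered 522 at ZT0 and 548, 566 and 580 at ZT6, ZT12 and ZT18. More were listed than at ZT0 on 23 of the 53 at ZT6 (43.4%, against 43.9% of all baits), on 31 at ZT12 (58.5%, against 42.6%) and on 30 at ZT18 (56.6%, against 42.8%). On 8 of them (15.1%, against 11.8%) the fullest list was at least 2 times and 5 contacts above the emptiest. The 53 had a median of 12 contacts, against 9 over all baits. Of their 907 pairs 28.9% were listed at all 4 timepoints and 33.0% at 1, against 32.5% and 35.2% of all pairs. Most contacts were found for Dbt (86), Cth (71) and Fah (47), and Agxt2, Cbs and Aass had no bait at the start.

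Promoter sequence was searched on both strands from 250 bases before to 50 after the start. The palindrome ACANNNTGT stood in 2 of the 9 windows, Hal and Bhmt, against 5.16% of the 16859 coding gene starts on baits. In Hal it is ACATGGTGT, 36 bases before the start, as printed above. CAAGGTCA, the motif of the nuclear receptor Nr5a2, stood in none of the 9 (1.26% of all), CACGTG, the E-box of the clock activators, in none (8.54%), and TTATGTAA, a D-box, in none (0.848%).

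RefSeq places some starts elsewhere on the same bait. For 7 of the 9 a RefSeq promoter was given and matched the mm9 genome exactly, always on the same bait, and the start of Tdo2 lay 474 bases and that of Bhmt 203 bases further along transcription. In those windows the palindrome stood in 3 of the 7, Hal, Bhmt and Tdo2, as ACAAGCTGT 178 bases before the Tdo2 start, against 6.85% of the 32851 RefSeq windows of that length. CAAGGTCA then stood in Bhmt, against 1.56%. A match of letters is a description of the window and no measure of binding.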

How the data were processed

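Mouse liver libraries were captured, sequenced, mapped to mm9 and filtered with HiCUP by the authors, and the 3 pools of each timepoint went together into CHiCAGO. In the deposited lists every fragment pair has a CHiCAGO score of 5 or more, with 1 list for each timepoint. Read counts per pair were not used here, so the depth behind a score is unknown.

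Lists were read with python 3.11.15, numpy 2.4.6 and scipy 1.17.1, and drawn with matplotlib 3.10.9. Pairs were taken without order (none stood in both directions). A contact of a gene is a pair with an end on the bait that holds its start in GENCODE vM1 on mm9. Genes, contacts and lists were chosen with earlier results of these data known. Named are all 9 genes, their 3 highest-scoring contacts, contacts with a coding gene start in at least 2 lists, and every contact of genes with 10 or fewer. No test was made. Counting functions were tested on simulated data. RefSeq promoters (GRCm38.p6) were placed on mm9 by exact match. Alternatives were scores of at least 7 or 10, equal list lengths, merging within 10 kb, every transcript start and the other order of lists, and, added after seeing the data, leaving out Hal or Tdo2.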

Additional observations from a re-analysis of the deposited data

How the results depend on the processing

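No paired analysis was possible because all 3 pools had been merged into each list, and for the same reason no replicate could be left out. A score is not a read count, so contacts near 5 can enter or leave a list with small changes. For ZT0, ZT6, ZT12 and ZT18 in turn, the 9 promoters had 27, 52, 55 and 42 contacts at a score of at least 7, then 9, 12, 18 and 21 at a score of at least 10, and 24, 35, 37 and 34 with other ends within 10 kb merged. The lowest number was at ZT0 in each. Without Hal there were 34 at ZT0, 63 at ZT6 and 51 at ZT18. With scores of at least 10, 2 promoters had more contacts at ZT6 than at ZT0, 4 did at ZT12 and 4 at ZT18, and for scores of at least 7 it was 4 at ZT18. In the other order of lists 5 had more at ZT18. The share listed at all 4 timepoints was 86.2% among contacts reaching a score of 10 at any timepoint, 64.1% with another end within 10 kb accepted and 24.8% without Hal. The share listed once was 28.2% at a score of at least 7, 55.2% at a score of at least 10 and 14.1% with the tolerance of 10 kb. The median distance was 79.3 kb among contacts reaching a score of 10. Every transcript start gave the same 142 contacts. The causes were not tested. Of the 36 counts by promoter and timepoint, 36 stayed within 1.5 times with lists of equal length, 24 in the other order, 14 with merged ends, 8 at a score of at least 7 and 3 at a score of at least 10.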
